A study of Mus musculus with 6 samples.

Results

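Chemokines are small secreted proteins that guide leukocytes along a gradient, and their receptors are membrane proteins with which cells read it. The chemokine and receptor genes described here were all genes represented by a probe set naming a single gene and carrying a *Ccl*, *Cxcl*, *Ccr* or *Cxcr* symbol with a number, together with *Cx3cl1*, *Cx3cr1*, *Xcl1*, *Xcr1*, *Ackr1* to *Ackr4*, *Pf4* and *Ppbp*. There were 57 of them among the 19938 genes measured, on 62 probe sets, and where a gene had several, the brightest on average stands for it. They comprised 36 ligand genes, 17 genes of signalling receptors and 4 of atypical receptors. Probe sets for the *Ccl21* and *Ccl27* genes name several genes each and were kept apart, as was *Ccr1l1*, whose symbol lies outside the rule.

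The arrays measured RNA from the esophageal epithelium of mice aged 3 months on a mixed genetic background. The 3 mutant mice carried ED-L2-Cre and loxP sites in both copies of *Klf4*, which encodes a zinc finger transcription factor of differentiating epithelium. The 3 control mice were littermates of the same sexes that had the floxed gene but lacked Cre. Each genotype had 1 male (replicate 1) and 2 females (replicates 2 and 3), so that values of the male and of a single animal cannot be told apart. The ED-L2 promoter, which comes from the Epstein-Barr virus, drives Cre in squamous epithelium, and cells of other types in the sample keep the floxed gene intact.

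The targeted gene was read first. *Klf4* gave 10.28, 10.50 and 10.28 on the arrays labelled mutant, against 9.75, 10.15 and 10.06 on the arrays labelled control, on the log2 scale of the deposited values. The *Klf4* signal was thus not lower on the arrays labelled mutant (difference 0.37 ± 0.13, SE; limma adjusted p = 0.314), and where the probes lie relative to the deleted part is not given in the sources used here. The groups below therefore go by the labels, and "mutant" stands for arrays so labelled in every direction given. Markers of squamous epithelium (8 genes) averaged 11.47 to 11.72 on the mutant arrays and 11.34 to 11.45 on the control arrays. Fibroblast markers were lower on the mutant arrays for 8 of 8 genes, with list means of 7.50 to 7.74 on the mutant arrays and 8.29 to 9.06 on the control arrays. Smooth muscle markers (5 of 5 lower) averaged 7.36 to 8.34 on the mutant arrays and 8.57 to 9.28 on the control arrays. Skeletal muscle markers varied widely within both groups, with overlapping list means of 6.57 to 9.16 on the mutant arrays and 6.42 to 10.22 on the control arrays. In a bulk sample such as this one, fewer cells of a type and less RNA per cell cannot be told apart.

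Chemokines fall into families named after the spacing of their first cysteines (CC, CXC, C and CX3C), and most signal through G protein-coupled receptors of the matching family. Atypical chemokine receptors bind the same ligands without coupling to G proteins, and they take up and degrade or present them. In squamous epithelia such as skin and esophagus, keratinocytes are known to make chemokines when exposed to inflammatory cytokines, while most of the receptors are carried by leukocytes.

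Of the 57 genes, 2 differed past an adjusted p of 0.05, and they moved in opposite directions. *Ackr2*, encoding an atypical receptor that scavenges inflammatory CC chemokines, rose 4.34-fold on the mutant arrays. *Ccl6*, encoding a CC chemokine of rodents that acts on myeloid cells, fell 4.22-fold. The other 55 did not pass the test. The background was 1.04% of the 19938 genes passing in either direction (207 genes), 0.366% higher and 0.672% lower, against 2 of 57 chemokine and receptor genes (3.51%). The median difference of the 57 genes was 0.083 on the log2 scale, beside 0.022 for all genes, with 36 higher and 21 lower on the mutant arrays. At an unadjusted p under 0.05 there were 11 of the 57 (19.3%), where all genes gave 12.4%. The plot of all differences by family shows how few of the 57 lay far from 0.

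**Figure D1:**
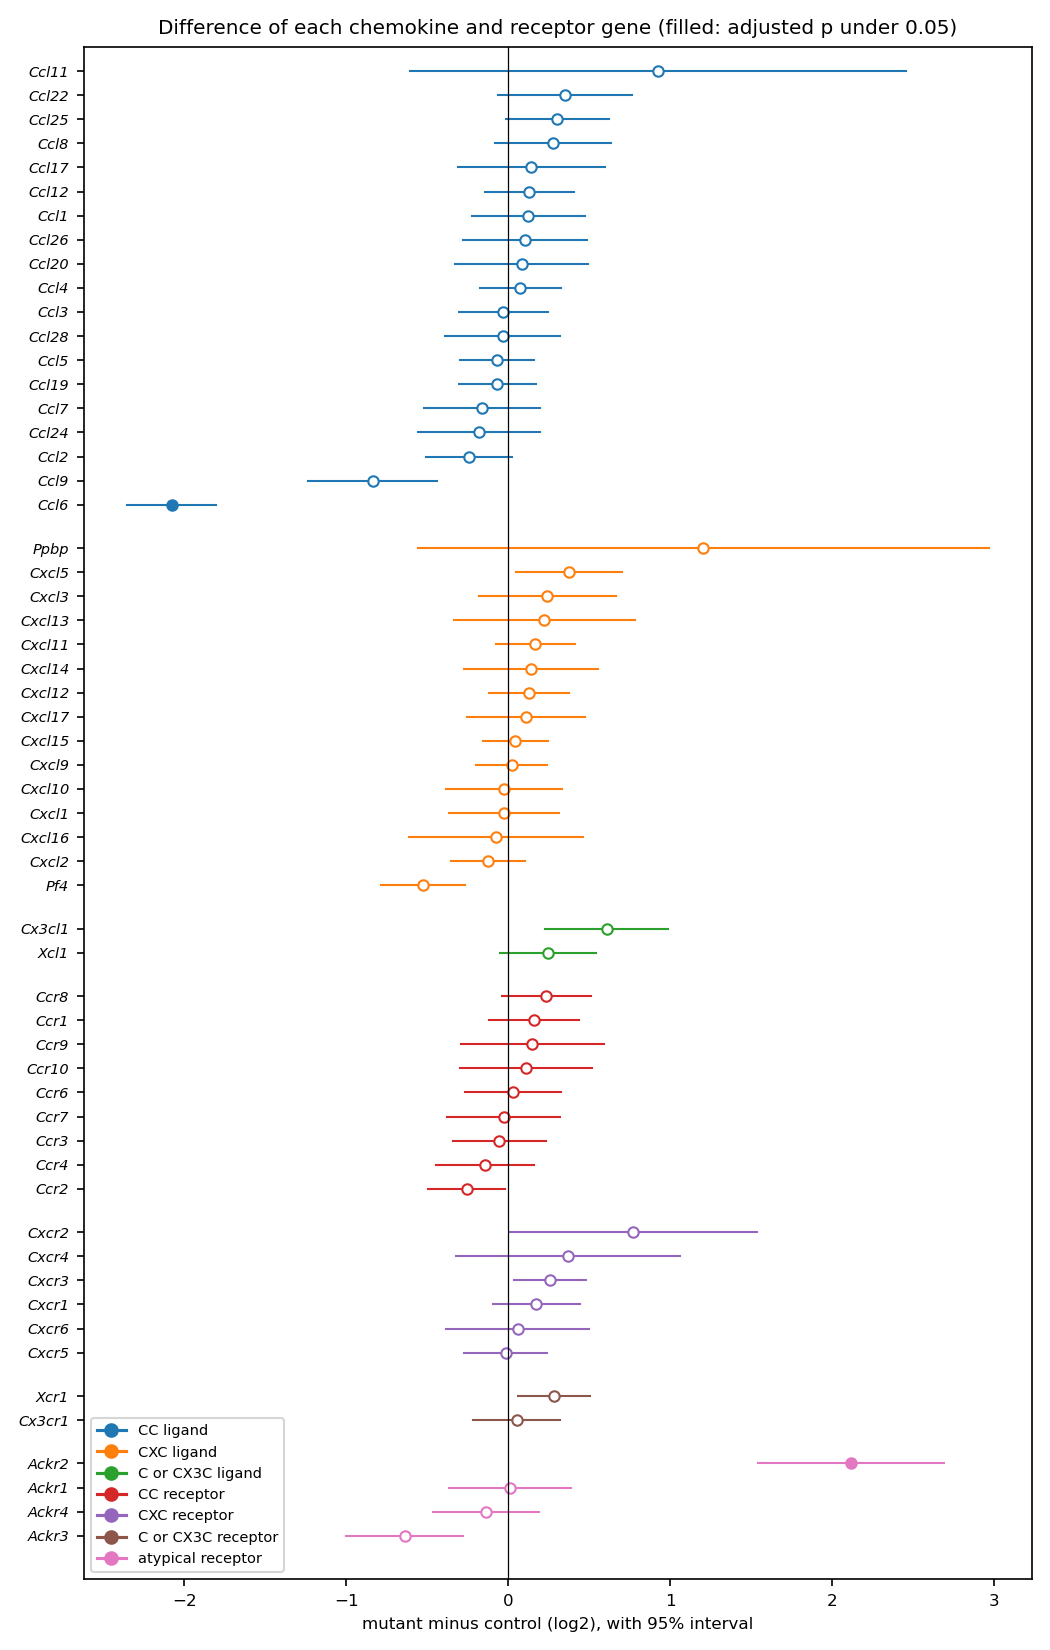
Difference between mutant and control arrays (x axis, log2; positive is higher in mutant) for each of the 57 genes (y axis), grouped and coloured by family, with the 95% interval from limma as a line. Only *Ackr2* (2.12) and *Ccl6* (-2.08) carry filled points, which mark an adjusted p under 0.05, and the wide intervals of *Ccl11* and *Ppbp* belong to genes that were high on mutant 1 alone.

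*Ackr2*, formerly *Ccbp2* or D6, encodes a decoy receptor known from lymphatic endothelium and also described in keratinocytes. Its values were 8.03, 7.33 and 7.15 on the mutant arrays. On the control arrays they were 5.06, 5.43 and 5.66. Every mutant value lay above every control value, and the gap between the nearest arrays exceeded the range of the 3 controls. Means were 7.50 ± 0.46 in mutant and 5.38 ± 0.30 in control (SD, n = 3 each), a difference of 2.12 ± 0.25 (SE; 95% interval 1.54 to 2.69; limma adjusted p = 0.0147). The difference was 2.96 in the single male pair and 1.69 over the females, and with 1 male a genotype no replicate bears on whether these differ. Of 4 markers of lymphatic vessels, 0 were higher. Their list means were 5.08 to 5.21 on the mutant arrays and 5.13 to 5.72 on the control arrays. *Lyve1*, a receptor of lymphatic endothelium, differed by -0.72 ± 0.22 (SE; limma adjusted p = 0.217). *Prox1* and *Flt4* were under the detection limit described below in both groups and differed by -0.016 and -0.094. The part of such cells in the *Ackr2* difference was not tested.

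The promoter window of *Ackr2* is shown because it is the only gene of the 57 that rose. It runs from 250 bases before to 50 after the annotated start (RefSeq, GRCm38.p6, chr9:121898105-121898404, plus strand). Capitals mark matches to CACCC, the core of the sequence that Krüppel-like factors bind, on either strand.
Ackr2: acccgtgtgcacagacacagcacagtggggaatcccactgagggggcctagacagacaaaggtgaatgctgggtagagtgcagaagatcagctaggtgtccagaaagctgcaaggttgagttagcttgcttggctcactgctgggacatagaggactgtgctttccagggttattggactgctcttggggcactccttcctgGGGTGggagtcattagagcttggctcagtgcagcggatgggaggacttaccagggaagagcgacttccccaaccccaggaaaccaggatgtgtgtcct
The 1 match begins 48 bases before the start. CACCC or its complement occurred in 57.5% of 32851 promoter windows of this length and in 55.6% of the 45 windows that RefSeq gave for 43 of the 57 genes. The kappaB consensus, bound by NF-kB, matched at 2 other places in the *Ackr2* window, not overlapping the CACCC match. It was found in 8.5% of all windows and in 24.4% of the 45.

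The CC chemokines that ACKR2 is known to bind gave no counterpart past the threshold. Of 10 such ligand genes, a list written with the values known (*Ccl2*, *Ccl3*, *Ccl4*, *Ccl5*, *Ccl7*, *Ccl8*, *Ccl11*, *Ccl12*, *Ccl17* and *Ccl22*), 6 were higher and 4 lower on the mutant arrays, none past the threshold, with a median of 0.10. Only *Ccl5* and *Ccl11* reached the working limit of detection described next on either group's mean. *Ccl5*, a chemokine of T cells and monocytes, read 5.10, 5.04 and 5.05 on the mutant arrays, against 5.05, 5.26 and 5.08 on the control arrays. The 2 groups overlapped, and the 95% interval of the difference was -0.29 to 0.16.

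The deposited table holds no detection calls, so a gene was taken as detected where a group's mean reached 4.72, the 40th percentile of the mean signal over all genes. By this rule 19 of the 57 genes were detected in controls (33.3%), beside 11964 of 19938 genes. They were the ligand genes *Ccl5*, *Ccl6*, *Ccl9*, *Ccl11*, *Ccl19*, *Ccl24*, *Cxcl1*, *Cxcl12*, *Cxcl16*, *Pf4* and *Cx3cl1*, the receptor genes *Ccr9*, *Ccr10*, *Cxcr2*, *Cxcr4* and *Cx3cr1*, and the atypical receptor genes *Ackr2*, *Ackr3* and *Ackr4*. *Ccl24* (4.79) lay just inside the limit and *Ccl7* (4.72 after rounding) just outside it. In the mutant group 18 of the 19 remained above the limit; *Ccl24* fell short of it at 4.61, and *Ccl25*, a chemokine of the gut and thymus, reached it at 4.81 against 4.50 in controls. The count was 29 with the limit at the 30th percentile and 5 at the 50th, so most of these genes lie where dim signal and background cannot be separated. Signals of different probe sets depend on their sequences and are not compared with each other.

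*Ccl6* was the ligand gene that fell past the threshold. On the mutant arrays it read 6.75, 6.67 and 6.44. On the control arrays it read 8.82, 8.70 and 8.58. The groups were far apart, with a spread within each that was small beside the gap. Means were 6.62 ± 0.16 in mutant and 8.70 ± 0.12 in control (SD, n = 3 each), so that *Ccl6* fell by 2.08 ± 0.12 on the log2 scale (SE; limma adjusted p = 0.000691). The difference was -2.07 in the male pair and -2.08 over the females.

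*Ccl9* is the neighbour of *Ccl6* on chromosome 11 and encodes a related chemokine, and both products are known to act through CCR1 in mice. It read 5.72, 5.41 and 5.21 on the mutant arrays and 6.02, 6.33 and 6.50 on the control arrays. All mutant values lay below all control values, by less than for *Ccl6*. The difference was -0.84 ± 0.17 (SE; 95% interval -1.23 to -0.44) and did not pass (limma adjusted p = 0.0831). It was -0.30 in the single male pair and -1.10 over the females. Of the nearest chemokine genes, *Ccl5* on one side differed by -0.067, and *Ccl3* and *Ccl4* on the other by -0.029 and 0.075. Of the 5 genes for CCR1 ligands, a list also written with the values known, all were lower on the mutant arrays and 1 passed. Only *Ccl6* and *Ccl9* of them had separate groups. The intervals of *Ccl3*, *Ccl5* and *Ccl7* spanned 0, and *Ccl3* and *Ccl7* were under the detection limit in both groups. *Ccr1* itself was under the detection limit in both groups, with means of 2.79 and 2.63 in mutant and control.

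Both windows are printed because *Ccl6* and *Ccl9* were the ligand genes with the largest decreases and adjoin each other (RefSeq, GRCm38.p6, minus strand, chr11:83593038-83593337 for *Ccl6* and chr11:83578587-83578886 for *Ccl9*). Capitals mark the runs of at least 10 bases that the 2 windows share in the same order.
Ccl6: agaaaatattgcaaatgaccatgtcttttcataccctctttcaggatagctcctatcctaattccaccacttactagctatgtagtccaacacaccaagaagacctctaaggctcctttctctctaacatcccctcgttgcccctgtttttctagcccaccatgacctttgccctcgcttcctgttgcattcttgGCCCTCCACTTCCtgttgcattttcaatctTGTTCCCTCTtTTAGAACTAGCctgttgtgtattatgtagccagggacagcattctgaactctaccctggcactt
Ccl9: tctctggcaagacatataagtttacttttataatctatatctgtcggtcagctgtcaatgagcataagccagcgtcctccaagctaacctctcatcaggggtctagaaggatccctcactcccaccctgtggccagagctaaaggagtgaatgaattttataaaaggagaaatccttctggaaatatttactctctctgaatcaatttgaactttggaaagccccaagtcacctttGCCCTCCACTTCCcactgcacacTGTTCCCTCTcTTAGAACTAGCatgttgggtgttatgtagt
There were 3 shared runs, of 13 bases at most and 34 in all. Of 903 pairs of promoter windows among 43 of the genes, 120 shared any such run and 2 shared more bases in this way. CACCC was not found in the *Ccl6* window and matched at 2 places in that of *Ccl9*. The kappaB consensus matched at 0 places for *Ccl6* and at 1 for *Ccl9*, apart from the CACCC matches.

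**Figure D2:**
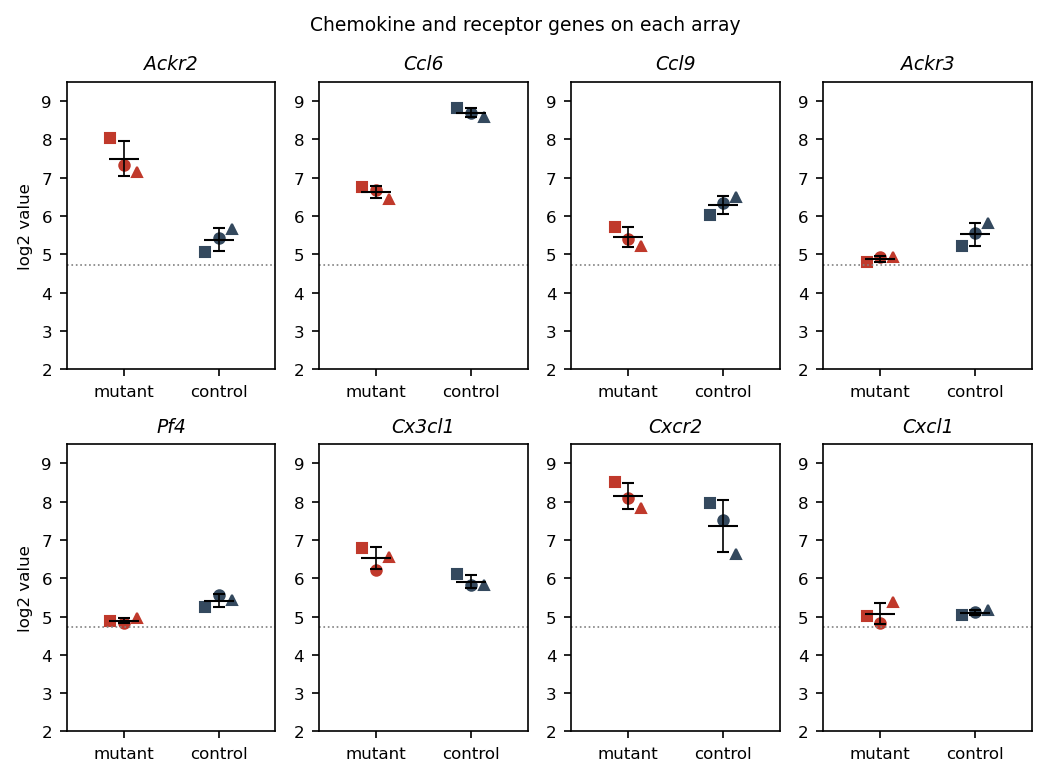
Log2 value (y axis) on each array for 8 genes, with the mutant arrays in red left of the control arrays in dark blue-grey. Squares are replicate 1 (male), circles replicate 2 and triangles replicate 3 (females), bars show the mean and SD of 3 arrays, and the dotted line is the detection limit of 4.72. The groups are separate for *Ackr2*, *Ccl6*, *Ccl9*, *Ackr3*, *Pf4* and *Cx3cl1* and overlap for *Cxcr2* and *Cxcl1*.

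Macrophage markers were read beside *Ccl6* and *Ccl9*, since myeloid cells are known to make both. Of 10 measured markers, 1 rose, 1 fell and 8 did not pass, with 3 higher and 7 lower and a median of -0.24. Their list means, 5.61 to 6.02 on the mutant arrays and 5.75 to 6.14 on the control arrays, overlapped. *Lyz2*, the lysozyme gene of myeloid cells, fell by 1.57 ± 0.27 (SE; limma adjusted p = 0.0463). *Cd68*, encoding a lysosomal protein of macrophages, rose by 1.11 ± 0.17 (adjusted p = 0.0304). *Csf1r*, encoding the growth factor receptor that macrophages need, differed by -0.15 ± 0.29. *Ptprc*, encoding the pan-leukocyte antigen CD45, differed by 0.30 with overlapping groups. The part of such cells, and of the lower fibroblast and smooth muscle signal, in the difference of *Ccl6* was not tested.

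**Figure D3:**
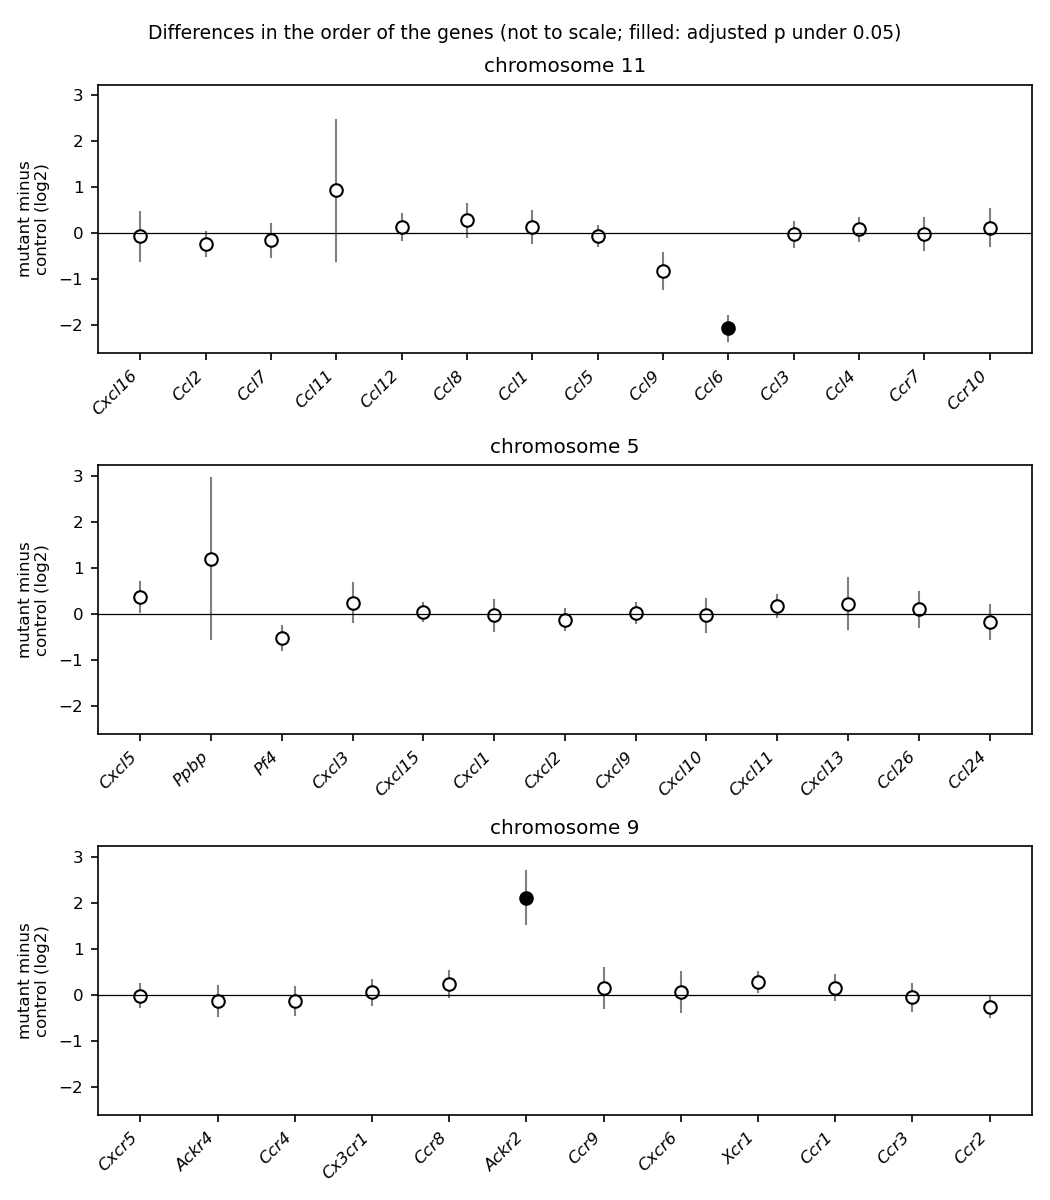
Difference between mutant and control arrays (y axis, log2; positive is higher in mutant; lines are 95% intervals) for the chemokine and receptor genes of chromosomes 11, 5 and 9, placed in their annotated order and not to scale. *Ccl9* and *Ccl6* stand side by side below 0 on chromosome 11, and *Ackr2* is the 1 filled point on chromosome 9.

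The remaining CC ligand genes did not pass. *Ccl19*, a chemokine of lymphoid tissue that guides dendritic cells and T cells, was named by 5 probe sets. The one used read 4.89, 4.78 and 5.04 on the mutant arrays and 4.92, 4.98 and 5.02 on the control arrays, overlapping throughout. Its 5 probe sets differed by between -0.13 and -0.068, and on 2 of them, which held the same values, the groups were separate. *Ccl24*, encoding an attractant of eosinophils, read 4.37, 4.68 and 4.77 on the mutant arrays, against 4.53, 4.80 and 5.04 on the control arrays. *Ccl25* had separate groups on the probe set used (difference 0.30 ± 0.14, SE; adjusted p = 0.433), while its second probe set differed by 0.013 with overlapping groups. *Ccl20*, which epithelium makes to attract cells bearing CCR6, was under the detection limit, with means of 4.31 in mutant and 4.23 in control.

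Several probe sets name the *Ccl21* and *Ccl27* genes together with close copies and are given apart. The 4 for *Ccl21*, a chemokine of lymphatic vessels and lymphoid tissue, held identical values. They read 5.43, 5.73 and 4.89 on the mutant arrays and 4.78, 6.67 and 6.05 on the control arrays, a difference of -0.49 ± 0.45 (SE, fitted over all probe sets). The 3 for *Ccl27*, a chemokine that keratinocytes make constitutively, had differences of 0.034 or 0.051. On the brightest of them the values were 5.59, 5.66 and 5.80 on the mutant arrays and 5.59, 5.67 and 5.69 on the control arrays. Groups overlapped in all 7.

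None of the 15 CXC ligand genes passed, and 4 of them were detected. *Pf4*, encoding platelet factor 4, read 4.89, 4.82 and 4.96 on the mutant arrays. It read 5.24, 5.57 and 5.43 on the control arrays. The groups were separate and both lay close above the limit, with a difference of -0.53 ± 0.11 (SE; limma adjusted p = 0.0932). *Pf4* is also made by some tissue macrophages, and 3 measured platelet genes averaged 5.25 to 5.65 on the mutant arrays and 5.13 to 5.32 on the control arrays, 3 of 3 higher. Their part in the *Pf4* difference was not tested.

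*Cxcl1*, an attractant of neutrophils that keratinocytes make in response to IL-1 and IL-17, read 5.01, 4.84 and 5.38 on the mutant arrays and 5.04, 5.11 and 5.17 on the control arrays. The groups overlapped, with an interval of -0.37 to 0.31 for the difference. *Cxcl12*, the ligand of CXCR4 made by stromal cells, read 5.09, 4.87 and 4.94 on the mutant arrays and 4.73, 4.96 and 4.83 on the control arrays. *Cxcl16*, a membrane-bound chemokine and scavenger receptor, read 5.91, 5.14 and 5.0 on the mutant arrays and 5.44, 5.55 and 5.28 on the control arrays. Mutant 1 was the highest of the 6 for both of them. *Cxcl5*, another neutrophil attractant, was under the limit in both groups but separate between them, with 4.08, 3.66 and 3.61 on the mutant arrays and 3.48, 3.38 and 3.37 on the control arrays (difference 0.38 ± 0.14, SE; adjusted p = 0.323). The 3 interferon-induced ligands of CXCR3, *Cxcl9*, *Cxcl10* and *Cxcl11*, were under the limit in both groups and differed by 0.021, -0.027 and 0.17.

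*Cx3cl1* encodes fractalkine, a chemokine on a membrane-anchored stalk that holds cells bearing CX3CR1. It read 6.79, 6.22 and 6.55 on the mutant arrays and 6.11, 5.81 and 5.81 on the control arrays. The mutant values were all higher, with mutant 2 close to control 1. The difference of 0.61 ± 0.16 (SE; 95% interval 0.23 to 0.99) did not pass (limma adjusted p = 0.162). Its receptor gene *Cx3cr1*, carried by monocytes and tissue macrophages, read 4.88, 4.80 and 4.94 on the mutant arrays and 5.01, 4.69 and 4.75 on the control arrays, with overlapping groups.

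Among the 17 signalling receptor genes none passed, and 12 were higher and 5 lower on the mutant arrays. *Cxcr2*, the receptor for *Cxcl1* and the other neutrophil attractants, gave a clear signal on every array. It read 8.50, 8.10 and 7.84 on the mutant arrays, against 7.97, 7.52 and 6.64 on the control arrays. Control 1 lay above mutant 3, so the groups overlapped, and control 3 was the lowest of the 6. The difference was 0.77 ± 0.33 (SE; 95% interval 0.011 to 1.54; limma adjusted p = 0.394). It was 0.40 without control 3 and 1.07 without control 1. Neutrophils are the best known carriers of this receptor. None of 9 measured neutrophil markers reached the detection limit in either group, *Ly6g* and *Csf3r* included, and 7 of the 9 were higher on the mutant arrays without passing. Their list means were 3.56 to 3.70 on the mutant arrays and 3.48 to 3.53 on the control arrays, and the part of such cells in the *Cxcr2* values was not tested.

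*Ccr10*, the receptor for *Ccl27* and *Ccl28* on skin-homing T cells, read 5.21, 4.83 and 5.56 on the mutant arrays and 5.07, 5.08 and 5.11 on the control arrays. *Ccr9*, the receptor for *Ccl25*, read 5.24, 5.71 and 4.97 on the mutant arrays and 5.30, 5.19 and 4.98 on the control arrays. Both overlapped between groups. The other 7 CC receptor genes were under the limit in both groups. Of these, *Ccr2*, the receptor of inflammatory monocytes, was separate, with 2.88, 2.73 and 2.84 on the mutant arrays and 2.96, 3.07 and 3.18 on the control arrays (adjusted p = 0.364). *Cxcr3* and *Xcr1*, receptors of activated T cells and of cross-presenting dendritic cells, were also separate, both higher on the mutant arrays by 0.26 and 0.28 and under the limit (adjusted p = 0.310 and 0.275).

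The atypical receptor genes other than *Ackr2* did not pass. *Ackr3*, which scavenges CXCL12 and CXCL11, read 4.80, 4.93 and 4.94 on the mutant arrays and 5.21, 5.56 and 5.81 on the control arrays. The groups were separate, with the mutant values nearly at the limit and a difference of -0.64 ± 0.16 (SE; limma adjusted p = 0.128). Without control 1 the difference was -0.80 and passed (adjusted p = 0.0473). *Ackr3* is known from vessels and stromal cells, and fibroblast markers were lower on the same arrays, *Col1a2* for one by 1.30 ± 0.19 (SE; adjusted p = 0.0273). Of 6 blood vessel markers, 3 were higher and 3 lower with none passing, and their list means of 5.15 to 5.32 on the mutant arrays and 5.04 to 5.48 on the control arrays overlapped. The part of either cell type in the *Ackr3* difference was not tested. *Ackr4*, which scavenges the ligands of CCR7 and CCR9, read 5.11, 5.46 and 5.02 on the mutant arrays and 5.19, 5.35 and 5.46 on the control arrays, overlapping. *Ackr1*, the Duffy antigen of venules and red cells, was under the limit with means of 4.14 in mutant and 4.13 in control.

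Counting groups that did not overlap, 6 of the 57 genes were higher (*Ackr2*, *Cx3cl1*, *Xcr1*, *Cxcr3*, *Cxcl5* and *Ccl25*) and 6 lower (*Ccl6*, *Ccl9*, *Ackr3*, *Pf4*, *Ccr2* and *Cxcl2*) on the mutant arrays. That is 21.1% of the 57, where 18.1% of all genes had separate groups, 10.1% higher and 8.0% lower. The share lay close to the background. For the 17 genes that were detected in controls and did not pass, the 95% interval stayed within 1.5-fold either way for 8 and within 2-fold for 12. For the other 5 of the 17, a change of 2-fold cannot be set aside with 3 arrays a group.

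Single arrays stood apart for some genes. Mutant 1, the male, was the highest of the 6 arrays for 23 of the 57 genes (40.4%), where it was so for 16.8% of all genes. Its lead over the next array ranged from 0.01 for *Cxcl10* to 2.99 for *Ppbp*. Most of the 23 were under the detection limit in controls. Mutant 3 was the highest for 16 (28.1%, beside 24.9% of all genes) and mutant 2 for 2 (3.5%, beside 16.6%). Mutant 2 was the lowest of the 6 for 15 of the 57 genes, a larger share than the 16.3% of all genes. *Ppbp*, encoding a platelet chemokine precursor whose product acts on CXCR2, read 5.98 on mutant 1 and 2.77 and 2.99 on the other 2 mutant arrays. On the control arrays it read 2.80, 2.68 and 2.63. *Ccl11*, encoding eotaxin, an attractant of eosinophils, read 8.12 on mutant 1 and 5.49 and 5.47 on mutants 2 and 3, against 5.42, 5.76 and 5.12 on the control arrays. *Cxcr4*, the receptor for CXCL12 on leukocytes and progenitor cells, read 6.43 on mutant 1 and 5.25 and 5.26 on mutants 2 and 3, against 5.23, 5.32 and 5.27 on the control arrays.

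None of the 3 passed between genotypes, with differences of 1.21 ± 0.76 for *Ppbp*, 0.93 ± 0.66 for *Ccl11* and 0.37 ± 0.30 for *Cxcr4* (SE; limma adjusted p = 0.608, 0.661 and 0.699). Without mutant 1 the differences were 0.17, 0.047 and -0.018. *Pf4*, the gene beside *Ppbp* and also expressed in platelets, was not high on mutant 1 (4.89). The 3 platelet markers averaged 5.45 on mutant 1 and 5.25 and 5.65 on mutants 2 and 3, against 5.13 to 5.32 on the control arrays. None of 4 eosinophil markers reached the detection limit in either group, and their mean on mutant 1 was 3.61, the lowest of the 6 arrays. Markers of Langerhans and dendritic cells averaged 6.28 on mutant 1 and 5.60 and 5.66 on mutants 2 and 3, against 5.48 to 5.85 on the control arrays, and *Ptprc* read 5.33 on mutant 1 and at most 4.94 elsewhere. The part of such cells in these values was not tested. Without mutant 1, *Ackr2* and *Ccl6* both still passed, with differences of 1.85 and -2.14 (adjusted p = 0.0205 and 0.0052).

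**Figure D4:**
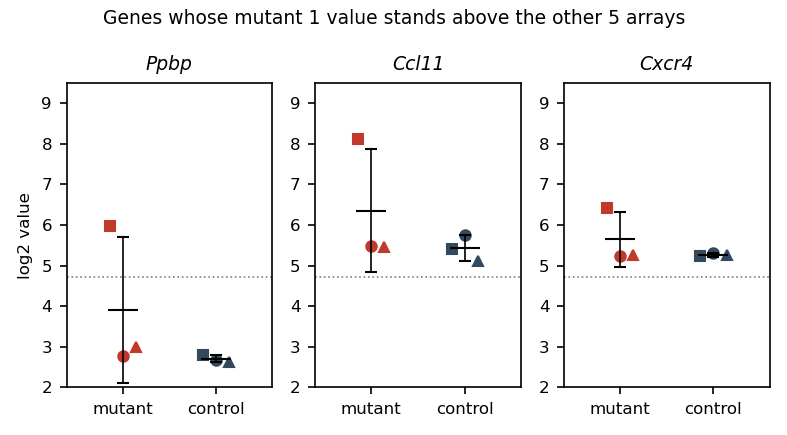
Log2 value (y axis) of *Ppbp*, *Ccl11* and *Cxcr4* on each array, mutant in red left of control in dark blue-grey, with squares for replicate 1 (male), circles for replicate 2 and triangles for replicate 3. Bars are the mean and SD of 3 arrays and the dotted line is the detection limit of 4.72. In each panel the square of mutant 1 stands above the other 5 arrays, which lie close together.

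Genes upstream and downstream of chemokines were read from companion lists. In the list of signal transduction and migration behind the receptors (26 measured, among them G protein, arrestin and Rac genes), none passed and the median difference was 0.021. The smallest p belonged to *Rgs2*, which shortens G protein signals (-0.46, adjusted p = 0.125). In the list of NF-kB and IL-17 signalling, which induces epithelial chemokines, none of 26 passed. The smallest p belonged to *Myd88*, the adaptor of the IL-1 receptor and Toll-like receptors (0.51, adjusted p = 0.0785). *Il1a*, a cytokine of keratinocytes, read 4.48, 4.35 and 4.90 on the mutant arrays and 6.91, 5.09 and 7.12 on the control arrays, separate but not past the threshold (adjusted p = 0.168). In the interferon list none of 17 passed, and 5 were under the detection limit in both groups. On the mutant arrays 15 were lower, beside 8864 of 19938 among all genes, with a median difference of -0.074. *Ifngr2*, encoding a chain of the interferon gamma receptor, differed by -0.53 (limma adjusted p = 0.0757).

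Of 16 genes of type 2 signalling, 1 rose past the threshold and none fell past it. It was *Il13ra1*, encoding a receptor chain for IL-13 and IL-4, with 10.17, 10.33 and 9.90 on the mutant arrays and 9.29, 8.94 and 8.99 on the control arrays (1.06 ± 0.15, SE; limma adjusted p = 0.0241). Of the 15 that did not pass, *Chil3* read 7.30, 6.21 and 4.69 on the mutant arrays. On the control arrays it read 3.28, 3.92 and 3.01, under the detection limit, so the groups were separate (limma adjusted p = 0.102). *Retnla* went the other way, with overlapping groups (-1.27 ± 0.50, SE; limma adjusted p = 0.349). The cytokine genes *Il4*, *Il5* and *Il13* of this list were under the detection limit in both groups. Of 19 genes that process, hold or resemble chemokines, 1 rose past the threshold and none fell past it. It was *Hs3st1*, encoding an enzyme that sulfates heparan sulfate, the matrix sugar to which chemokines bind, and it read 6.44, 6.49 and 6.39 on the mutant arrays and 5.45, 5.49 and 5.67 on the control arrays (0.90 ± 0.10, SE; adjusted p = 0.0118). The protease gene *Mmp2*, whose product trims chemokines, differed by -0.55 and did not pass (adjusted p = 0.0812).

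Markers of most leukocyte types were dim. None of the 9 neutrophil, 4 eosinophil and 3 B cell markers measured reached the limit in either group, and 1 of 5 did for natural killer cells, 2 of 6 for mast cells and 3 of 7 for T cells. No marker of these 6 types passed the test. The mast cell list had means of 3.79 to 3.93 on the mutant arrays and 4.06 to 4.13 on the control arrays, with the protease gene *Mcpt4* at -0.93 ± 0.18 (SE; adjusted p = 0.0717). Of 9 markers of Langerhans and dendritic cells, 8 were higher and none passed. The plot of marker lists by array shows 5 lists whose means did not overlap between groups. Those of fibroblasts, smooth muscle and mast cells were lower on the mutant arrays. Those of squamous epithelium and neutrophils were higher by a small margin. Their lowest mutant means were 11.474 and 3.559, against highest control means of 11.454 and 3.526. No neutrophil marker had separate groups.

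**Figure D5:**
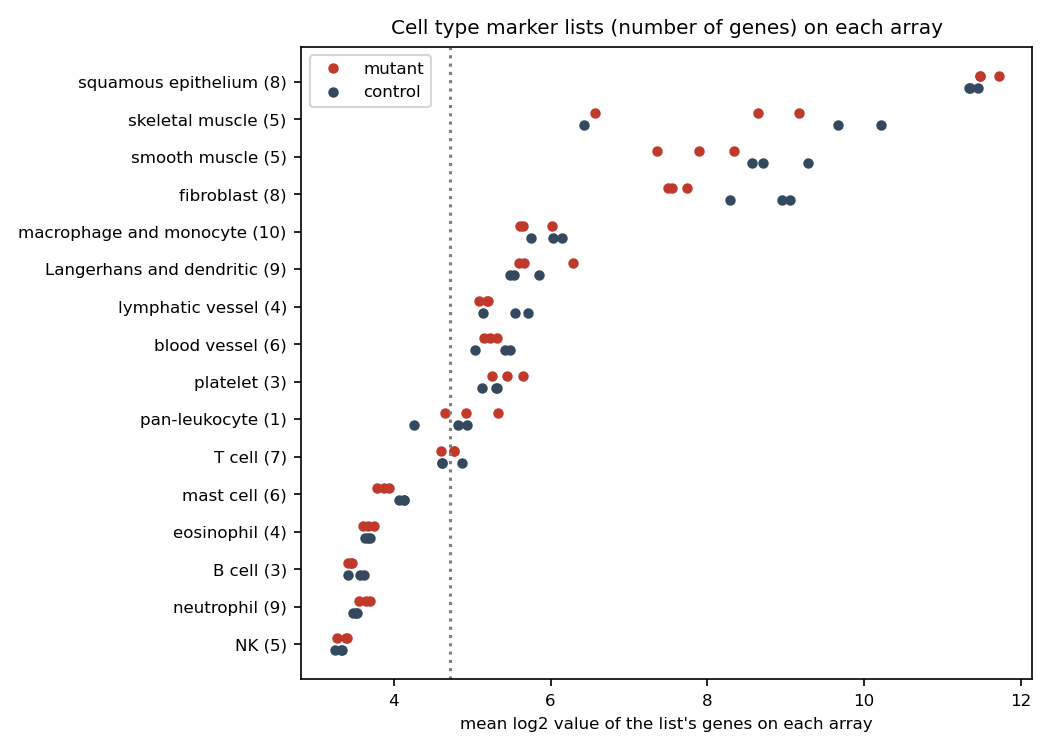
Mean log2 value (x axis) of each list of cell type markers on each array, with mutant arrays in red above control arrays in dark blue-grey and the number of measured genes after each list's name. The dotted line is the detection limit of 4.72. Fibroblast, smooth muscle and mast cell points of the mutant arrays lie left of all control points. Squamous epithelium and neutrophil points lie right of them by a small margin, and skeletal muscle varies widely within both groups.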

How the data were processed

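RNA from 6 animals was measured on 1 array each, from 100 ng of total RNA amplified from poly(T)-primed cDNA, per the labels' protocols. The table deposited by the authors holds log2 values for 28853 probe sets. The scale was read from the values, and Partek 6.4 is the only tool given, per the submitters' processing notes. How background was corrected and probes were normalized and summarized is not given in the sources used here; such steps can shrink the differences of dim genes. The number of arrays, 3 a group, limits the precision.

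A single gene was named by 21789 probe sets and several genes by 1621, while 5443 had no name here. For a gene with several probe sets, that with the highest mean signal was kept. Symbols were updated by Entrez identifier to GRCm38.p6 (21698 matched, 91 kept the older symbol). The fit had genotype as its only term and no filter on dim genes (lmFit, then eBayes, from limma 3.58.1 under R 4.3.3), and its two-sided p-values were adjusted by Benjamini-Hochberg over 19938 genes, with 0.05 as the threshold. The SE of a difference is limma's moderated one. A permutation of 3 arrays against 3 was not used, since its exact p cannot go below 0.1.

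Named genes were those passing, those detected in either group, the 5 largest differences in each direction, *Klf4*, and of the companion lists the passing genes or up to 2 with the smallest p. Other genes are named as values of dim or overlapping members, as markers and from the companion lists, chosen after their values were seen. The members and lists were chosen with earlier results of these data known. Data were simulated with the real means and independent normal values of limma's moderated spread (19938 genes, 50 changed at each size). Changes of 0.5, 1, 2 and 3 passed for 20%, 92%, 100% and 100% of the changed genes, and 14 of 170 calls were false. Outlying single arrays and shifts shared by many genes were not simulated, so these shares may be too high for the real data. Alternatives covered normalization, probe set rules, dim genes, sex, replicate number, variance models, a 1.5-fold minimum, the females alone and each array left out. The interaction of genotype and sex was added after seeing the data. Plots used matplotlib 3.10.9 in Python 3.11.15.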

Additional observations from a re-analysis of the deposited data

Results flagged for a closer look

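The genotype difference of *Ppbp* was 3.18 in the male pair and 0.22 over the 2 females of each genotype, a gap of 2.96 on the log2 scale. The gap is that of 1 array, mutant 1, which read 5.98 where the other 5 read at most 2.99. An interaction of genotype and sex, added after seeing the data, gave it a limma adjusted p of 0.0419 (1 of 9 genes among 19938 under 0.05), but each genotype had 1 male, so this p has no replicate behind it and assumes that the males vary as the females do. Sex and animal cannot be told apart.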

How the results depend on the processing

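*Ccl6* passed under all 18 alternatives run (differences of -2.14 to -1.99). *Ackr2* passed under 17 of 18 (1.69 to 2.29) and did not pass with the replicate number as a block (adjusted p = 0.0567). Of 410 values of 23 named genes across settings, 407 kept their side of the threshold and none reversed past it. Only *Ackr2* and *Ccl6* of these genes passed in the main fit, so for the others this means that they still did not pass. Among genes that passed in no setting, the sign of the difference changed in 5 settings for *Cxcl1*, 3 for *Cxcl16* and 2 for *Cxcr4*. It changed in 1 each for *Ccr9*, *Ccr10* and *Cx3cr1*. *Ccl9* passed with array quality weights only (-0.89, adjusted p = 0.0459), and *Ackr3* without control 1 only.

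Of the 57 genes, 2 passed; 1 did with the replicate block, 3 with array weights or without control 1, and 2 to 3 when an array was left out. Over all genes 207 passed; the count was 81 with the replicate block, 370 with array weights, 83 in the females only and 44 to 193 when an array was left out (93 without mutant 1, 93 without mutant 2, 102 without mutant 3, 106 without control 2 and 44 without control 3). Arrays that share a replicate number did not deviate together (correlations of -0.17, 0.09 and -0.10). No array correlated best with the array of its own number in the other genotype. With 3 arrays a group, such correlations cannot decide whether the numbers pair the animals. Replicate 1 was the male in both genotypes. Genes detected in controls were 19, with 29 at the 30th percentile and 5 at the 50th. The cause of these changes was not tested. Signal close to background limits what can be said of the 38 genes under the detection limit.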
